A study of Mus musculus with 2 samples.

Results

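Of the 113777 peaks of accessible chromatin on chromosomes 1 to 19, 1923 had their summit inside the coding sequence of a gene and more than 2000 bp from the start of any annotated gene or transcript. These coding-exon peaks were chosen by position alone, with the summit as deposited and the CDS features of GENCODE release M21 on mm10, and they are 1.69% of the autosomal peaks and part of a list of 116782 peaks in all. Accessibility was measured by ATAC-seq, a method that lets the Tn5 transposase insert sequencing adapters into open DNA. The cells were EHMT2-dTAG mESCs, mouse embryonic stem cells of a BL6/129 hybrid strain (C57BL/6J x 129S1 F1, parental line KH2) that were grown on feeder cells in serum with LIF. In these cells the endogenous Ehmt2 gene, which encodes a histone H3K9 methyltransferase, carries a degron cassette with a domain derived from FKBP12, HA tags and mCherry. The 2 samples came from independent clones, had 50000 cells each and were treated with DMSO, the solvent of the degrader, over 24 h. EHMT2 was not depleted in either of them and no depleted group is part of the list. Both clones were merged into 1 peak list by the authors, so no value below has a spread between replicates, no difference could be tested, and intervals cover counting error only.

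Exons are the parts of a gene that are kept in its mature RNA, and coding exons spell the protein. Most open chromatin of a mammalian cell lies at promoters and at enhancers in introns and between genes, but coding sequence is also wrapped in nucleosomes and can hold binding sites of transcription factors. Coding sequence is richer in G and C than introns, and its CpG dinucleotides, the sites of DNA methylation in mammals, are kept in part by the code. The peaks below are therefore given beside distal peaks of introns, of other exons (UTRs and noncoding RNAs) and between genes, all with summits more than 2000 bp from any start, and beside the peaks nearer to starts.

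The sequences at the summits of the strongest coding-exon peaks show what kind of DNA was open. They are given 5′ to 3′ on the strand of the gene in mm10, with the bases of the coding exon in capitals and intron bases in lower case, and they were chosen among the 10 peaks of highest fold enrichment as the strongest peak, the deepest peak, peaks that reach a splice site, a GC-rich last exon and a repeated exon.
Zscan22, chr7:12903683-12903798, plus strand: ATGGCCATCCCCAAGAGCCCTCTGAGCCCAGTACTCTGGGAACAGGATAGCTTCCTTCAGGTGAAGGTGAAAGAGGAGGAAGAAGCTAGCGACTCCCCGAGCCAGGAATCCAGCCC
3300002I08Rik, chr2:150311117-150311237, minus strand: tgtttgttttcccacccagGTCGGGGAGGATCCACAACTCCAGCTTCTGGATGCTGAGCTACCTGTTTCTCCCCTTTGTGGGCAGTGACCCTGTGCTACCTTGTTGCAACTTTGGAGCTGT
Adgrv1, chr13:81424172-81424292, minus strand: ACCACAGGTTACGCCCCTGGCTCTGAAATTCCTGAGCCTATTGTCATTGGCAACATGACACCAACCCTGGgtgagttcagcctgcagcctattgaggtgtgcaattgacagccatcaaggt
Bmpr1b, chr3:141863014-141863134, minus strand: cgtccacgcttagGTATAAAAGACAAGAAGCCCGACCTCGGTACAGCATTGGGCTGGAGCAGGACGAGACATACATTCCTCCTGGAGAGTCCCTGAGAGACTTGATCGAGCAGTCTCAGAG
Helz, chr11:107686525-107686645, plus strand: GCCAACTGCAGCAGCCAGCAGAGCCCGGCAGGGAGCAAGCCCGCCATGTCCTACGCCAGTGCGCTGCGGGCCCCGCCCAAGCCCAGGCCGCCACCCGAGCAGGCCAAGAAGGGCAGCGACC
Prdm9, chr17:15544279-15544399, minus strand: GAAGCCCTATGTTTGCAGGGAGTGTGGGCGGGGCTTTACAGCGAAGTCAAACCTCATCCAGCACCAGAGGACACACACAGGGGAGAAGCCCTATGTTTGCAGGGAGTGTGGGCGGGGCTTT
The stretch of Zscan22 begins at its ATG start codon, those of 3300002I08Rik and Bmpr1b run from the intron into the exon, and that of Adgrv1 leaves the exon through its splice donor.

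Coding exons held peaks at nearly the density of sequence near gene starts. There were 95.2 coding-exon peaks per Mb of the 20.2 Mb of coding sequence that could hold one (95% Poisson interval 91.0 to 99.6). Sequence within 2000 bp of a start held 100.1 peaks per Mb, introns held 40.9 (interval 40.5 to 41.3), other exons held 46.3 and intergenic sequence held 39.4. The density in coding sequence was thus 2.33 times that in introns and 2.06 times that in other exons. Coding sequence is 0.843% of the sequenced autosomal bases and introns are 37.4%.

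**Figure D1:**
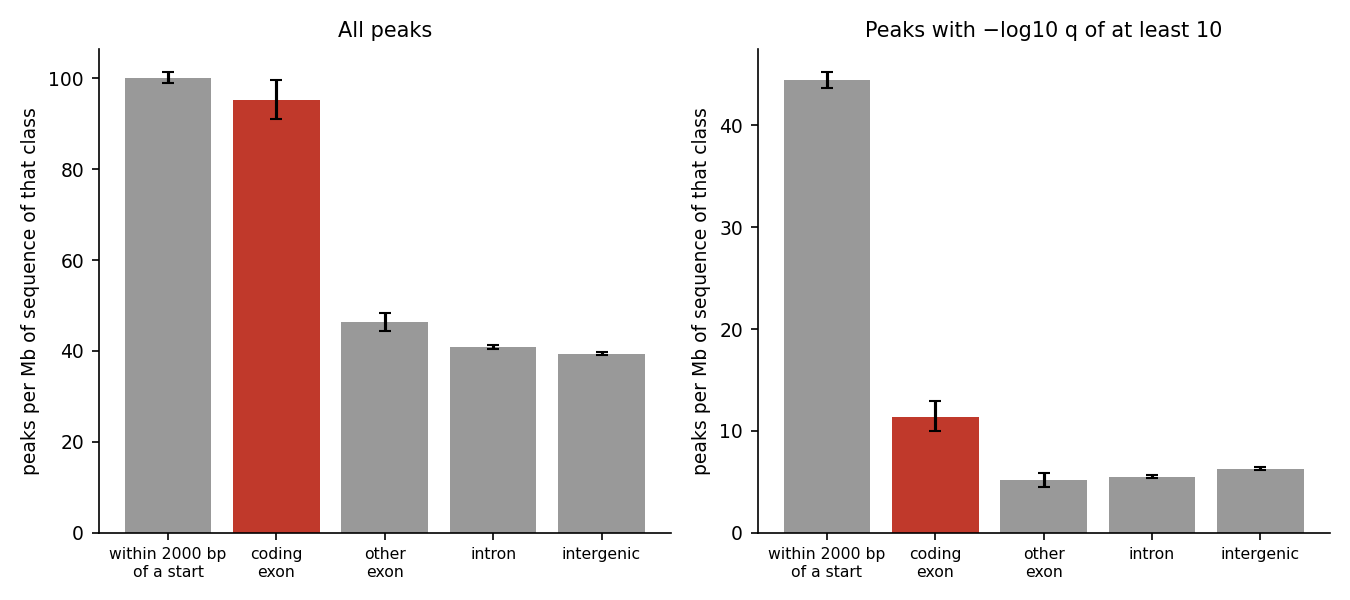
Peaks per Mb of sequence, for all peaks (left) and for peaks with a −log10 q-value of at least 10 (right), in the 5 classes of sequence on chromosomes 1 to 19, with bars for density and whiskers for 95% Poisson intervals. Coding exons (red) reach 95.2 peaks per Mb on the left, close to the 100.1 near starts, but 11.4 on the right, where sequence near starts has 44.4.

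The peaks in coding exons were weak, however. Fold enrichment, as MACS2 gives it, divides the fragments piled up at a summit by those expected from the background around it, after adding 1 to each. Its median was 3.72 over the coding-exon peaks, with quartiles of 3.24 and 4.96 and a range from 2.199 to 18.8. Near starts the median was 5.51, and in introns, in other exons and between genes it was 3.698. The number of fragments over a summit, calculated back from the fold enrichment and p-value, had a median of 9 in coding exons (quartiles 7 and 13) against 17 near starts and 8 in introns. As many as 1225 coding-exon peaks (63.7%) rested on 10 fragments or fewer, and 72 had 30 or more. Over all autosomal peaks, 21.8% had a −log10 q-value of at least 10. Among the coding-exon peaks this share was 11.96% (230 peaks, Wilson 95% interval 10.6% to 13.5%), in introns 13.4%, between genes 15.9% and near starts 44.4%. Coding-exon peaks were somewhat wider than intronic ones, with medians of 602 and 531 bp.

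**Figure D2:**
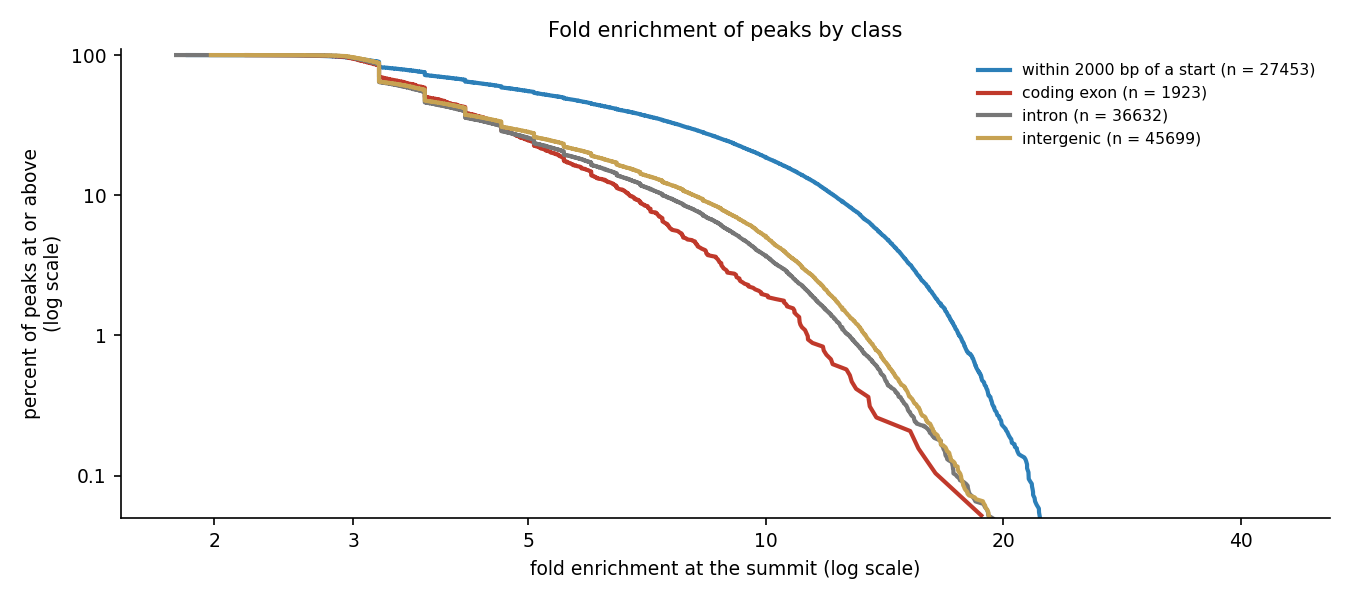
Percent of peaks (log scale) with at least the fold enrichment on the horizontal axis (log scale), for coding-exon peaks (red, n = 1923), peaks within 2000 bp of a start (blue), intronic peaks (grey) and intergenic peaks (gold). The coding-exon curve starts with the intronic one and lies below it at high values, ending at 18.8.

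The base composition of the summits set coding exons apart from other distal peaks. Over the 100 bp on either side of the summit, GC content had a median of 57.7% in coding-exon peaks, 49.3% in intronic, 48.8% in intergenic and 58.2% in start-proximal peaks. These windows held a median of 7 CpGs in coding exons, 2 in introns and 8 near starts. The ratio of observed to expected CpGs was 0.46, 0.20 and 0.53 in the same order. Windows with a GC content of at least 50% and a CpG ratio of at least 0.6 made up 27.6% of coding-exon peaks (530 peaks), 3.74% of intronic and 42.3% of start-proximal peaks. Repeats covered few of the coding summits, since 3.85% of them lay in soft-masked bases against 25.6% in introns. The sequence itself differed likewise, with 19.2 of 20.2 Mb unmasked in eligible coding sequence and 628 of 896 Mb in introns.

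Peak density rose with GC content in coding exons, introns and intergenic sequence alike. At matched GC content it was at or below the intronic value in coding exons from 40 to 65% GC, and under 40% or from 65% the intervals included it. In windows with 40 to 45% GC, coding sequence held 28.2 peaks per Mb and introns 30.03. At 55 to 60% GC the values were 151 (interval 138 to 164) and 152 (148 to 157). Between 60 and 65% coding sequence was lower, with 289 (262 to 318) against 411 (393 to 430), and at 65% or above the densities were 704 and 700. Windows of at least 55% GC make up 27.4% of eligible coding sequence and 3.85% of introns. When the intronic densities were weighted by the GC make-up of coding sequence, introns came to 108.5 peaks per Mb, so the ratio of coding to intronic density was 0.877 in place of 2.33.

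The number of CpGs gave the same picture. With 0 or 1 CpG in the window, coding sequence held 25.2 peaks per Mb and introns 25.9. With 4 to 6 CpGs the densities were 75.1 (interval 68.6 to 82.0) and 79.1 (77.3 to 80.9), and with 7 to 9 they were 160 and 172. Coding sequence was lower with 10 to 14 CpGs, at 333 (300 to 369) against 564 (537 to 593). With 20 or more CpGs it held 1103 peaks per Mb, from 120 peaks, and introns 825, from 50 peaks, with intervals that overlapped.

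**Figure D3:**
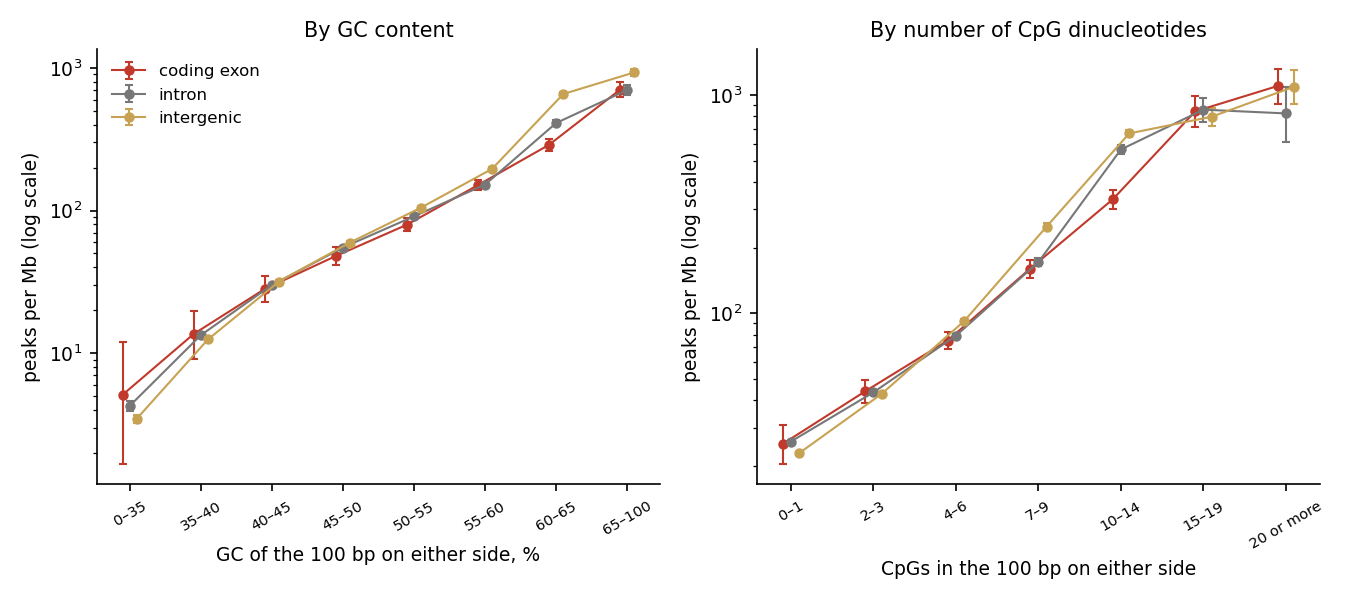
Peaks per Mb (log scale) in coding exons (red), introns (grey) and intergenic sequence (gold), by the GC content (left, in percent) and the number of CpGs (right) of the 100 bp on either side of a base, with 95% Poisson intervals. The 3 lines rise with GC content, and the coding line is the lowest of the 3 from 40 to 65% GC and from 4 to 14 CpGs. At 60 to 65% GC the lines part, with 289 per Mb in coding, 411 in intronic and 656 in intergenic sequence. At 10 to 14 CpGs the values are 333, 564 and 668.

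Strong peaks behaved otherwise. Among peaks with a −log10 q-value of at least 10, windows with 60 to 65% GC held 31.4 per Mb in coding sequence, 184 in introns and 343 between genes. With 10 to 14 CpGs the densities of strong peaks were 43.3, 345 and 401 per Mb in the same order. The median fold enrichment of peaks with 10 to 14 CpGs was 3.93 in coding exons (362 peaks) and 7.71 in introns (1606 peaks). With 20 or more CpGs, coding exons held more strong peaks than introns, at 441 per Mb (48 peaks) against 281 (17 peaks), with 598 between genes, and the medians of fold enrichment were 5.33 and 5.09 in coding exons and introns. After weighting by GC make-up, the density of strong peaks in coding sequence was 0.371 times that in introns, although it was 2.07 times without the weighting.

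With exons pooled over genes, last coding exons were denser than internal ones. Exon length was not matched in this comparison. Of the 1923 peaks, 1855 lay in the coding sequence of the gene's principal transcript. The last coding exon held 546 of these (29.4%, Wilson 95% interval 27.4% to 31.5%) with 18.9% of the eligible bases, which is 147 peaks per Mb (135 to 160). Internal coding exons held 1135 peaks (61.2%) with 74.2% of the bases, or 78.2 per Mb (73.7 to 82.8). First coding exons held 78 peaks at 121 per Mb, and genes with 1 coding exon held 96 at 136 per Mb. The order of last and internal exons was the same within strata of GC content. Below 50% GC the densities were 37.1 (28.5 to 47.6) in last and 29.7 (26.0 to 33.8) in internal exons, with intervals that overlapped. They were 148.6 and 98.1 at 50 to 60% GC, and 498.9 (440 to 563) and 314 (282 to 349) at 60% or above. Along the coding sequence, density was lowest at 65.8 per Mb in the first 10% of its length, highest at 127 per Mb between 80 and 90%, and 117 per Mb in the last 10%.

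Long coding exons were also denser than short ones. Exons with 100 to under 150 coding bases held 59.8 peaks per Mb (interval 53.0 to 67.3), those with 300 to under 500 held 180 (156 to 206) and those of 2000 bp or more held 107 (90.5 to 126). The exon under a peak had a median of 290 coding bases, while the median eligible coding exon had 128. Below 50% GC the length of the exon made little difference, with 30.7 peaks per Mb under 200 bp and 31.9 at 500 bp or more. At 60% GC or above the densities were 253 (213 to 298) and 437 (391 to 487). In all, 1.61% of the 114230 eligible coding exons held a peak.

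**Figure D4:**
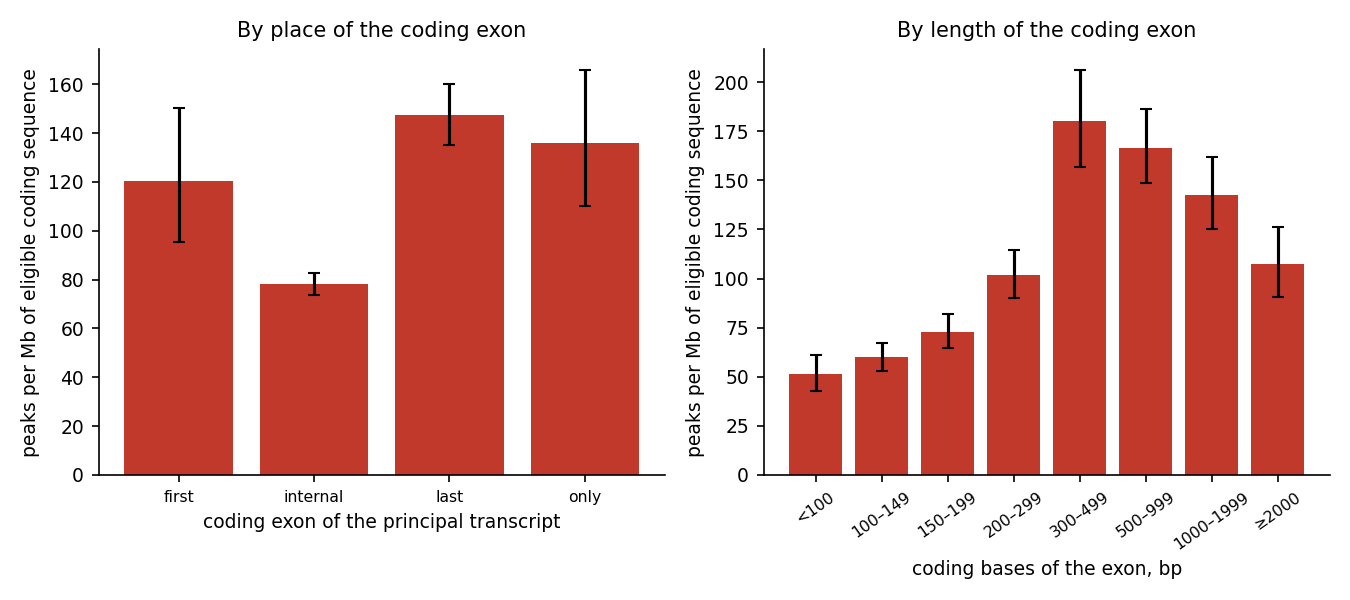
Coding-exon peaks per Mb of eligible coding sequence, by the place of the exon in the principal transcript (left) and by the number of its coding bases (right), with 95% Poisson intervals. Last coding exons reach 147 peaks per Mb and internal ones 78.2, and density is highest at 180 per Mb in exons of 300 to under 500 bp.

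Summit density was lower at the edges of coding exons than deeper inside, although 389 summits lay within 25 bp of an edge. Within 10 bp of an exon edge, coding sequence held 62.0 summits per Mb (interval 52.3 to 72.9), and density rose to 148 at 100 to 150 bp and 198 at 250 to 500 bp from the edge, positions that only long exons have, and it was 116 (99.4 to 135) at 500 bp or more. In introns it was 50.1 per Mb (45.8 to 54.6) within 50 bp of a coding exon, 35.9 at 200 to 400 bp and 41.0 at 3200 bp or more. The share of G and C was 48.4% in the coding bases within 10 bp of an edge, 52.9% at 100 to 150 bp, and 44.4% in the intron bases within 50 bp of a coding exon. Most peaks were larger than the exon beneath them. The peak was wider than its coding exon in 1341 cases (69.7%), a median of 54.1% of its bases was coding, and 357 peaks lay wholly in coding sequence.

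**Figure D5:**
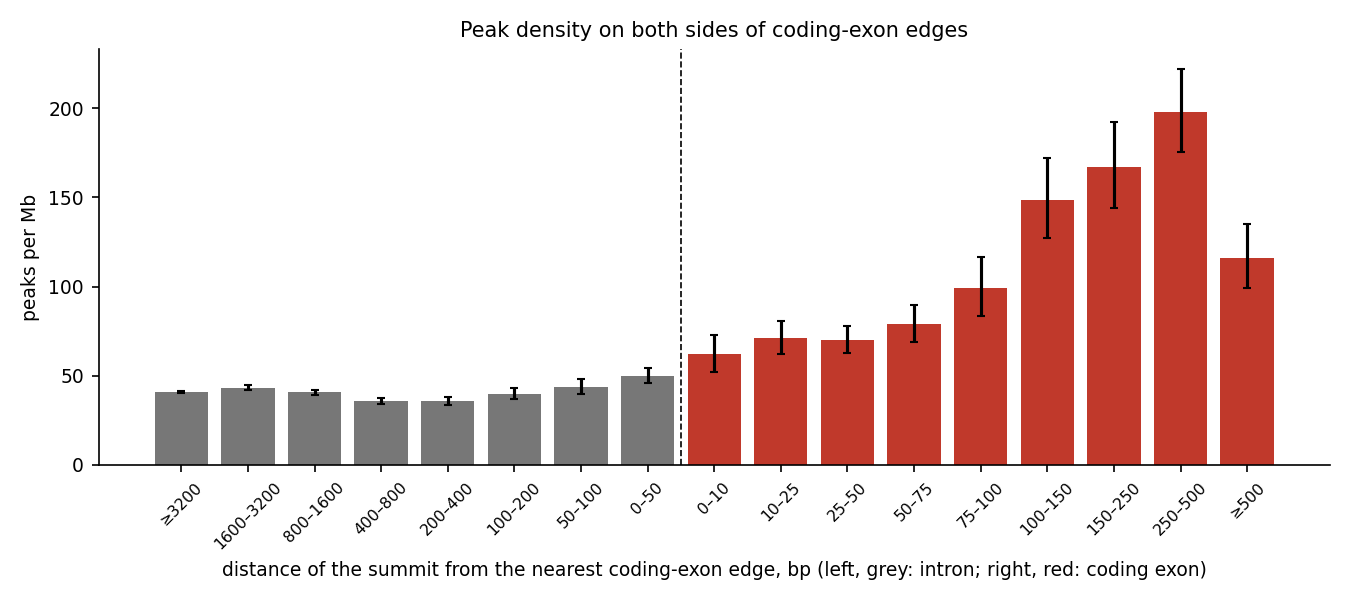
Peaks per Mb by the distance of the summit from the nearest coding-exon edge in bp, on the intron side (grey) and inside coding exons (red), with the edge as a dashed line and 95% Poisson intervals. Density steps from 50.1 to 62.0 per Mb across the edge and reaches 198 per Mb at 250 to 500 bp inside.

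The strongest coding-exon peak, in Zscan22, a gene of the SCAN zinc finger family, had a fold enrichment of 18.8 from 98 fragments (exact Poisson interval 79.6 to 119). It lay in the first of 2 coding exons, 5871 bp from the nearest annotated start. The peak in 3300002I08Rik had the most fragments of all coding-exon peaks, 124 (103 to 148), at a fold enrichment of 16.4. Its summit in the last of 4 coding exons was 273 bp from a transcript start in RefSeq that the annotation used for the rule does not list. Adgrv1, an adhesion receptor of hair cells and photoreceptors, had a fold enrichment of 15.6 with 63 fragments in coding exon 72 of 90, with the summit 9 bp from the splice donor printed above. Sec16b, which acts in export from the endoplasmic reticulum, had 15.2 with 63 fragments in coding exon 18 of 25. These 4 summits had modest CpG content, with 5, 1, 2 and 5 CpGs in their windows.

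Bmpr1b, a type I receptor for bone morphogenetic proteins, had a fold enrichment of 13.8 with 36 fragments in coding exon 5 of 10. Adgra2, an adhesion receptor of brain blood vessels, followed with 13.5 and 116 fragments (95.9 to 139) in its last coding exon on chromosome 8, where 79.2% of the peak was coding. Grid2ip, a partner of a glutamate receptor in Purkinje cells, had 13.5 with 40 fragments and 16 CpGs in its window. Wdr33, part of the polyadenylation machinery, had 13.01 with 37 fragments, and Helz, a putative RNA helicase, had 12.8 with 45 fragments in a last exon whose window was 70.1% GC. The strongest 10 included 4 peaks in last and 5 in internal coding exons.

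Prdm9, the histone methyltransferase that places meiotic recombination hotspots, closed the 10 with a fold enrichment of 12.8 and 68 fragments (52.8 to 86.2). Its summit lay in the last coding exon, which encodes the zinc finger array, and the printed stretch begins and ends with the same run of bases. The window at the summit had 7 further matches of at least 90% identity, all in the same exon, and 0 of at least 98%. Matches that spanned the summit itself were left out of this search, so adjacent copies in the array could go uncounted. Matches also had to cover at least 90% of the window, so shorter repeats went uncounted. How many reads at coding-exon peaks had several matches and were placed at random was not tested. Over all coding-exon peaks, 38 windows (1.98%) had another match of at least 98% identity, and 3 of these were in strong peaks. The 2 strongest such peaks were in Hs3st3b1 and Hs3st3a1, which encode heparan sulfate sulfotransferases, with fold enrichments of 8.403 and 8.20 and 19 fragments each.

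Peaks that passed a −log10 q-value of at least 10 differed in composition from the rest. The 230 strong peaks had a median of 24 fragments and a median fold enrichment of 7.54, and the 1693 others had 8 and 3.698. GC content had medians of 60.7% and 57.2%, and CpG-rich windows as defined above made up 46.1% and 25.04%. Last coding exons held 41.4% of the strong peaks in principal transcripts and 27.8% of the others. Strong peaks lay a median of 6322 bp from the nearest start and the others 7540 bp. A start of a RefSeq transcript lay within 500 bp of 12 strong peaks (5.22%) and of 43 coding-exon peaks in all (2.24%), against 1.35% of intronic peaks. Curated RefSeq starts accounted for 9 of the 43.

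A coding-exon peak was found in 1698 of the 20807 autosomal protein-coding genes, which is 8.16%, and 1505 of these genes had 1 peak, 171 had 2 and 22 had 3 or more. The share grew with the coding sequence at hand. When genes were divided into 4 sets of like size by that length, it was 2.19% in the set with the least eligible coding sequence and 21.7% in the set with the most. The genes with the most peaks were long. Ttn, which encodes the giant muscle protein titin, had 5 peaks of 6 to 8 fragments in 99.5 kb of eligible coding sequence. Wdfy3, a selective autophagy protein, had 5 peaks in 8.74 kb, with fold enrichments from 2.88 to 3.93 and at most 10 fragments. Pclo, a scaffold of the presynaptic active zone, had 4 peaks of 6 or 7 fragments.

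Sptbn4, a spectrin of axon initial segments, had 4 peaks with fold enrichments of 9.64, 3.78, 3.87 and 4.89, and its strongest peak had 47 fragments in coding exon 32 of 35. All 4 of its windows held 12 or more CpGs. Ryr1, the calcium release channel of skeletal muscle, also had 4 peaks, with fold enrichments from 3.23 to 7.40 and at most 15 fragments. Only these strongest peaks of Sptbn4 and Ryr1, among the peaks of the 5 genes, had a −log10 q-value of 10 or more, at 30.6 and 10.1.

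The promoters of genes with a coding-exon peak were mostly open. A peak within 500 bp of a start of the gene was present in 78.8% of them (Wilson 95% interval 76.8% to 80.7%) and in 73.1% (72.4% to 73.8%) of the other genes with eligible coding sequence. The strongest such peak per gene had a lower median fold enrichment in genes with a coding-exon peak, 7.730 against 9.002. Genes with a coding-exon peak had more eligible coding sequence, with medians of 1.60 and 0.819 kb. Within the same 4 sets of genes the shares were 73.9% and 68.3% in the shortest, 73.7% and 73.2%, then 77.0% and 73.4%, and 81.8% and 78.7% in the longest. Of the 1530 coding-exon peaks in genes with a start peak, 1309 (85.6%) had a lower fold enrichment than that peak, and the median ratio was 0.518. The median fold enrichment was 3.73 in genes with a start peak and 3.72 in the 393 peaks of genes without.

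Among gene lists, homeobox genes, protocadherins and germ-layer transcription factors were denser than coding sequence as a whole, which held 94.8 peaks per Mb when sequence shared by genes was counted for each. GC content was not matched in this comparison, and all coding sequence in windows of 55 to 60% GC held 151 peaks per Mb. Shares of genes are over all genes of a list, also those without eligible coding sequence. Homeobox genes, which encode transcription factors of body patterning, held 25 peaks in 17 of 139 genes (12.2%), or 291 per Mb (interval 188 to 430), in eligible sequence with 56.97% GC, where all eligible coding sequence had 50.6%. Lhx6 led the list with a fold enrichment of 11.1 from 47 fragments, followed by Lhx2 with 7.60 from 18 fragments and a summit 196 bp from a RefSeq start. The list does not hold every homeobox gene. Peaks in Rax and Shox2, with fold enrichments of 9.69 and 8.84, lay outside it and are not in these counts. Of the 25, 4 were strong. Zfhx3, a large homeodomain and zinc finger protein, had 4 peaks with fold enrichments of 5.95, 4.12, 3.40 and 3.23. The list's median fold enrichment was 3.66, close to the 3.72 of all coding-exon peaks.

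Germ-layer transcription factors held 6 peaks in 5 of 50 genes (10%, near the 8.16% of all genes), or 273 per Mb (100.3 to 595), in sequence with 58.3% GC. The windows at these 6 summits had a median GC content of 71.1%. Runx1, a factor of blood formation, had the strongest with a fold enrichment of 9.28 from 30 fragments and another of 3.12 from 6 fragments. Tal1, which also acts in blood formation, had 5.26 from 19 fragments and 26 CpGs in its window. Foxa1, a pioneer factor of endoderm, had 3.61 from 28 fragments, Pax8 had 3.698 from 7 and Gata4 had 3.31 from 10. All 26 pluripotency genes of the list, which are used as markers of stem cells, had a peak within 500 bp of a start, with fold enrichments from 2.83 in Pou5f1 to 15.9 in Zfp42, as had 96% of the chromatin regulators and 97.5% of the ribosomal protein genes listed below and 5.22% of the 1455 olfactory and vomeronasal receptor genes. Over genes with eligible coding sequence this share was 78.8% with and 73.1% without a coding-exon peak. Inside their coding exons the pluripotency factors held 2 peaks (7.69% of the genes), in Zfp42, known as the stem cell marker Rex1, with 4.94 from 24 fragments, and in Klf5 with 4.35 from 37 fragments.

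Protocadherins, adhesion receptors whose clustered genes have long first exons, held 14 peaks in 13 of 67 genes (19.4%), or 265 per Mb (145 to 444), in sequence with 54.3% GC. The strongest were in Pcdhb14 with a fold enrichment of 7.40 from 15 fragments and Pcdhb10 with 6.93 from 14. Of the 14, 12 were on chromosome 18, all between 2001 and 2289 bp from a start and so close to the limit of the rule. On that chromosome all coding sequence held 123 peaks per Mb (96.1 to 155), the second density after that of chromosome 8. Without protocadherins the value for chromosome 18 was 110.1 per Mb.

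The list of C2H2 zinc finger genes held 74 peaks in 68 of 520 genes (13.1%), or 103 per Mb (80.9 to 129), and 17 of the 74 were strong, among them those of Zscan22 and Prdm9. This list is not exact. Genes such as Zeb2 and Bcl11a, with fold enrichments of 6.64 and 5.12, lay outside it, and Sp100, with 3.08, is in it without being a C2H2 gene. Over all protein-coding genes 8.16% had a coding-exon peak, and 230 of the 1923 peaks were strong. Chromatin regulators, here a fixed list of writers, readers and erasers of histone and DNA methylation and other Polycomb proteins, held 7 peaks in 50 genes (14%), at 96.1 per Mb (38.6 to 198), and none was strong. The list is not complete. Prdm9, a histone methyltransferase, L3mbtl3 with a fold enrichment of 10.5 and Phc3, a Polycomb protein, with 7.86 lay outside it and are not in these counts. Within the list, Zfp462, a zinc finger protein that binds EHMT proteins, led with a fold enrichment of 6.05 from 18 fragments, followed by Phf19, a Polycomb protein, with 4.95 from 10. The other 5 were in Cbx6, Bmi1, Tet2, Jarid2 and Tet1, with fold enrichments from 4.14 down to 3.15. Collagens, whose genes have many short exons, held 10 peaks at 67.3 per Mb (32.3 to 124), led by Col4a2 with 4.76 from 11 fragments and Col6a3 with 4.16 from 8.

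Olfactory and vomeronasal receptors, which sense odours and pheromones, had the lowest density among lists with a peak. It was 39.3 per Mb (21.5 to 65.9) in sequence with 41.7% GC. The list held 14 peaks in 1455 genes (0.962%), but only 233 of these genes had eligible coding sequence and could hold a peak. Among all 20807 protein-coding genes, 16008 had eligible coding sequence. The strongest was in Olfr544, with a fold enrichment of 5.32 from 14 fragments and another match of at least 98% identity in the genome, and the next in Olfr1 with 4.62 from 9. Of the 79 ribosomal protein genes, 13 had eligible coding sequence, and none of their 2361 eligible bases held a peak, which allows a density of up to 1271 per Mb (3 counts). The tagged gene Ehmt2 and Fkbp1a, the source of the FKBP12 domain in the degron cassette, had no coding-exon peak, with 103 and 239 bp of eligible coding sequence. Their 2 and 1 autosomal peaks were all within 2000 bp of a start.

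Sequence motifs of transcription factors were searched on both strands of the windows. A match to the core motif of CTCF, the architectural protein of chromatin loops, was present in 104 coding-exon peaks (5.41%, Wilson 95% interval 4.48% to 6.51%), in 4.002% of intronic peaks and in 1.26% of windows at the middle of 110891 eligible coding exons without a peak. The excess over exons without a peak was present within strata of GC content, at 5.02% and 0.581% below 50% GC, 5.61% and 1.85% at 50 to 60%, and 5.34% and 3.64% at 60% or above. Peaks with a match had a median fold enrichment of 4.36 and were strong in 17.3% of cases, and peaks without had 3.698 and 11.7%. The 3 strongest peaks with a match are shown with 20 bases on either side of it, which is in capitals and read on its own strand.
Bmpr1b, chr3:141862962-141863012, plus strand: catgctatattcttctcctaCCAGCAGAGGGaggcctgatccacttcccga
B4galnt1, chr10:127170936-127170986, minus strand: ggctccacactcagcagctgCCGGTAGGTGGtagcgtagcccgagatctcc
D930020B18Rik, chr10:121689743-121689793, plus strand: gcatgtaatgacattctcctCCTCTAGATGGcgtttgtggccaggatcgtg
These peaks had fold enrichments of 13.8, 11.9 and 9.80 and 36, 57 and 38 fragments, with the centre of the match 87, 38 and 94 bp from the summit. B4galnt1 encodes a ganglioside synthase.

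Octamer and SOX motifs, which pluripotency factors bind, were rarer than in introns. The octamer ATGCAAAT, bound by POU factors such as OCT4, was present in 7 coding-exon peaks (0.364%, interval 0.176% to 0.750%), in 2.35% of intronic peaks, in 2.67% of intergenic peaks and in 0.680% of coding exons without a peak. The SOX motif CATTGTT was present in 2.03%, with 3.81% in introns and 3.15% in exons without a peak, and the ESRRB motif CAAGGTCA in 1.92% (interval 1.40% to 2.64%), with 2.57% and 1.36%. The KLF motif GGGNGTGG was found in 7.75% of coding-exon peaks, 9.75% of intronic peaks and 4.10% of exons without a peak. The octamer windows had a median GC content of 46.8%, below the 57.7% of the other coding-exon windows.

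Motifs of SP and ETS factors, common at promoters, had shares between those of intronic and start-proximal peaks. The motif GGGGCGGGG of SP factors was present in 1.87% of coding-exon peaks, 1.23% of intronic peaks, 8.44% of start-proximal peaks and 0.324% of exons without a peak. The ETS motif CCGGAAGT had 0.988%, 0.311%, 2.33% and 0.477% in the same order, and the E-box CACGTG had 5.10%, 3.12%, 4.86% and 3.18%. Matches of the AP-1 motif TGANTCA were present in 3.95% of coding-exon peaks and 7.71% of intronic peaks, of the TEAD motif GGAATGT in 2.18% and 3.797%, and of the YY1 motif AAGATGGC in 1.35% and 3.27%. NRF1, CRE, RFX and REST motifs, spelled GCGCATGCG, TGACGTCA and GTTGCCATG for the first 3, were each present in 7 coding-exon peaks or fewer. GC content differs between these sets and was not matched except for CTCF.

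By chromosome, coding-exon peaks ranged from 44 on chromosome 19 to 174 on chromosome 7. Chromosome 8 was densest with 142 per Mb (interval 120 to 167), and its introns were also densest with 63.9 peaks per Mb. Its ratio of coding to intronic density, 2.22, was within the range of the other chromosomes, which ran from 1.99 on chromosome 9 to 3.54 on chromosome 18. The median background under the peaks was 1.84 fragments on chromosome 8 and 1.22 to 1.43 on the others. Coding-exon summits had another peak's summit within 2000 bp in 15.4% of cases, against 14.2% of intronic ones.

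The widest coding-exon peaks were those of Prag1 with 2821 bp, Epor with 2466 bp and Cbarp with 2393 bp, with fold enrichments of 4.57, 2.55 and 4.62. Over all coding-exon peaks, the strong ones had a median width of 905.5 bp and the others 565 bp. The fewest fragments, 6, were found in 425 peaks, and the first of them by position was in Pkhd1. At the limit of the rule, the nearest peaks inside were in Pcdhgb2 and Rusc2, 2001 and 2002 bp from a start, with fold enrichments of 3.78 and 3.55. Just outside was a peak in Ercc4, at 1997 bp, with 6.41. A further 2665 summits lay in coding sequence within 2000 bp of a start and were not counted.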

How the data were processed

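ATAC-seq libraries of the 2 clones were trimmed with BBMap and aligned to mm10 with STAR 2.7.10 by the authors, with each read of several matches written at 1 best place and ties at random. Duplicates were removed with Picard 2.26.0, reads in ENCODE High Signal Regions were also removed (the submitters' notes name SAMtools 1.14 and bedtools 2.30.0), reads were shifted for Tn5, and peaks were called with MACS2 2.2.6 on both clones merged. The deposited fold enrichment is the ratio of pileup plus 1 to background plus 1 at the summit. Each deposited −log10 p-value belongs to the summit, as does each −log10 q-value (lowest 1.30), and the deposited score was not used. Library totals were not analysed here.

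Summits were placed in GENCODE M21 (mm10, checked by chromosome lengths against GRCm38), and a summit near a start, in coding sequence, in another exon, in an intron or between genes was assigned in that order. Eligible sequence is the sequenced bases of each class. Fragment numbers were the whole numbers that give both fold enrichment and p-value, and they came out whole (within 0.001 of the −log10 p-value) for all 1923 members and for 113776 autosomal peaks. The principal transcript of a gene was its basic transcript of best APPRIS rank, then longest coding sequence. Intervals are exact Poisson for densities and fragments and Wilson for shares, at 95%. Other copies were searched with BLAST 2.17.0 over at least 90% of the window, without matches on the same chromosome that spanned the summit. Calculations used Python 3.11.15, NumPy 2.4.6, pandas 2.3.3 and SciPy 1.17.1, and steps were tested on simulated data.

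The members, gene lists, motifs and named items were chosen with earlier results of these data known. Named were the 10 members of highest fold enrichment, the 5 genes with most members (ties by position), the 2 strongest members of each list, the 3 widest, the 3 strongest with a CTCF match, the 2 on either side of 2000 bp, Ehmt2, Fkbp1a, and the members of most and fewest fragments. Others, such as the remaining homeobox, germ-layer and chromatin genes and the peaks with other copies, were named after their values were seen. Alternatives were a stricter q-value (−log10 q of 10 or more), distances of 1000 and 5000 bp, basic transcripts only, at least 50% of the peak coding, no chromosome 8, no soft-masked summits and no members with other copies. Weighting introns by GC content was added after the data were seen. Of the 2 named just outside 2000 bp, 1 is not reported here.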

Additional observations from a re-analysis of the deposited data

Results flagged for a closer look

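The rule for coding-exon peaks covers chromosomes 1 to 19, and chromosomes X and Y lay outside the comparisons. Chromosome X held 27 summits in coding sequence more than 2000 bp from any start, which is 31.6 per Mb of eligible coding sequence (95% Poisson interval 20.8 to 46.0), against 14.3 peaks per Mb of its introns. Their median fold enrichment was 4, and 0 of the 27 reached a −log10 q-value of 10. The strongest were in Elk1, an ETS transcription factor, and in the homeobox gene Rhox1, both with a fold enrichment of 6.01 from 12 fragments. Zrsr2, a splicing factor, had 5.64 from 14 fragments, and Bcor, a corepressor of the Polycomb family, had 5.20 from 12. Chromosome Y held 0 such summits in 0.0767 Mb of eligible coding sequence. The list holds no control library, so no independent background was measured for these peaks.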

How the results depend on the processing

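No paired analysis was possible because the 2 clones share 1 merged peak list. With a −log10 q-value of at least 10 there were 230 coding-exon peaks, the ratio of coding to intronic density was 2.07, the median fold enrichment 7.54, the median GC content 60.7%, the share in last coding exons 41.4% and the share of genes with a peak 1.09%. At more than 5000 bp from starts there were 1272 peaks, with a median GC content of 56.7% and 5.41% of genes, and at more than 1000 bp 9.74% of genes. When peaks were chosen by at least 50% of their bases in coding sequence, there were 1187 peaks, with a ratio of 1.44 and a median GC content of 58.7%. Their summits could lie outside coding sequence but not within 2000 bp of a start. Of these peaks, those with a summit in coding sequence gave 37.9% in last coding exons and 4.68% of genes. Without soft-masked summits the ratio was 2.21. The ratio turned below 1 when introns were weighted by GC content, at 0.877 for all peaks and 0.371 for strong ones, both added after the data were seen. The other 29 of 47 values stayed within the counting interval of the reported value, or within 1.5 times for counts. Depth is limited, since 63.7% of the peaks rest on 10 fragments or fewer. Composition bias of Tn5 or of amplification was not tested, and differences between clones could not be measured.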
